A study of Mus musculus with 5 samples.

Results

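Light chains of mouse antibodies are built from 1 of many variable segments, a short joining segment and a constant gene, at either the kappa locus or the smaller lambda locus. The segments described here are all 163 genes, of 33,696 in the count tables, whose symbol begins with Igkv or Iglv followed by a digit. Of these, 160 are kappa segments in 20 families on chromosome 6 and 3 are lambda segments (Iglv1, Iglv2 and Iglv3) on chromosome 16. GENCODE M21 annotates 103 of them as genes and 60 as pseudogenes.

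The libraries are single-cell RNA sequencing of blood mononuclear cells from C57BL/6N mice, some of them given a regimen that models heart failure with preserved ejection fraction (HFpEF). There were 2 libraries of mice on regular chow, and 2 of mice given a high-fat diet (HFD) together with L-NAME, which inhibits nitric oxide synthase, for 15 weeks. A single further library, called NO2-OA below, came from mice whose HFD + L-NAME regimen was joined by NO2-OA (nitro-oleic acid, a nitrated fatty acid) for the last 4 weeks. The labels do not say whether a library is 1 animal or a pool, so every p-value here measures only the spread between libraries. Cells were frozen and thawed before 10x capture with 3′ chemistry, which reads the end of a transcript near the constant gene, while the variable segment lies at the other end.

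In a mature B cell, 1 productive light-chain rearrangement is normally expressed, and kappa is used far more often than lambda in mice. Kappa segments in the same orientation as the joining segments rearrange by deletion of the DNA in between, and those in the opposite orientation by inversion. In the lambda locus Iglv1 lies next to the Iglc3 and Iglc1 cluster, and Iglv2 and Iglv3 next to the Iglc2 and Iglc4 cluster. B-1 cells, a self-renewing population known for natural antibodies, include cells that bind phosphatidylcholine through the pair Ighv11-2 with Igkv14-126 or the pair Ighv12-3 with Igkv4-91.

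The segments that the results below turn on are shown by the last 60 bases of their germline transcript in GENCODE M21 (GRCm38), 5′ to 3′. Capitals mark the codon of the conserved cysteine, after which the germline part of the third complementarity-determining region begins. No coordinates are given, because the reads were aligned to another build.
Igkv1-117: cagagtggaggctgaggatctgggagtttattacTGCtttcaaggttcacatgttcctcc
Igkv1-110: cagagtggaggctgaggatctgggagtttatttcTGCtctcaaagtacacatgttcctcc
Igkv17-121: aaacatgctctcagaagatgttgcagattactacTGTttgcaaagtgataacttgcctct
Igkv17-127: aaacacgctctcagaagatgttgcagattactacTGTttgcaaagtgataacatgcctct
Igkv9-120: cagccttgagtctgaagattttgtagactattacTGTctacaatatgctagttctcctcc
Igkv14-126: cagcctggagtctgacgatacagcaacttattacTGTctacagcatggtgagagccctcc
Igkv12-44: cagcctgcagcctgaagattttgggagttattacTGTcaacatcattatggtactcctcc
Igkv5-43: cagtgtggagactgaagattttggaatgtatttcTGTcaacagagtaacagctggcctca
Iglv1: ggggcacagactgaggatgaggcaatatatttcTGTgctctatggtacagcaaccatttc
Iglv2: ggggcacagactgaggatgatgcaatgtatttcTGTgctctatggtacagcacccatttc
Iglv3: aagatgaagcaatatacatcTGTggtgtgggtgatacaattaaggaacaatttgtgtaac

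Some of these are near copies of each other. Over the aligned germline transcripts, Igkv1-117 and Igkv1-110 were 97.5% identical, Igkv17-121 and Igkv17-127 97.5%, and Iglv1 and Iglv2 97.1%. How the authors' counting divided reads between such copies is not stated, so the split within each of these pairs is uncertain. Iglv3 was 62.5% identical to Iglv1, and 61.3% to 63.1% to Igkv17-121, Igkv17-127, Igkv9-120, Igkv14-126 and Igkv2-109.

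Usage was counted in B barcodes, which held at least 200 genes, a mitochondrial share under 10%, at least 1 unique molecular identifier (UMI) of Cd79a, a signalling chain of the B-cell receptor, and none of Cd3e of the T-cell receptor. Of 62,028 kept barcodes 28,067 were B barcodes. There were 6896 and 5764 on chow, 6597 and 3336 under HFD + L-NAME and 5474 with NO2-OA. All 11 B-cell markers were detected in every library, at a summed 13,849 to 16,978 CPM (UMIs scaled to equal library totals) in B barcodes and 164.5 to 372.0 in T barcodes (Cd3e present, Cd79a absent). The 8 T-cell markers summed to 20.1 to 72.6 CPM in B barcodes and 2040 to 2653 in T barcodes. By the rules Cd3e, among the 8, is at 0 in B barcodes and present in T barcodes, and Cd79a, among the 11, is the reverse. These sums are thus in part fixed by the choice of barcodes. In B barcodes, markers of red cells summed to 495.2 to 15,034 CPM and those of platelets to 116.6 to 1539 CPM. Those of monocytes summed to 806.2 to 2392 CPM and those of neutrophils to 10.4 to 1553 CPM. Any monocyte marker was present in 76.7% to 89.4% of B barcodes per library. The part of these red-cell, platelet, monocyte and neutrophil markers in the results was not tested. Between 2 and 12 B barcode sequences were shared by any pair of libraries.

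Segment transcripts were sparse. B barcodes held 17,936 segment UMIs, 2531 and 4855 on chow, 3347 and 3989 under HFD + L-NAME and 3214 with NO2-OA. At least 1 segment UMI was seen in 24.9% (exact 95% binomial interval 23.9% to 26.0%) and 44.6% (43.3% to 45.9%) of B barcodes on chow, 32.4% (31.3% to 33.6%) and 54.2% (52.5% to 55.9%) under HFD + L-NAME and 31.9% (30.7% to 33.2%) with NO2-OA. Such intervals cover counting error only. Both libraries numbered 2 lay above the other 3, and the chow and HFD + L-NAME libraries overlapped. Igkc, the kappa constant gene, followed the same order, with a median of 12 and 23 UMIs per B barcode on chow, 19 and 33 under HFD + L-NAME and 16 with NO2-OA. Per 1000 light-chain constant UMIs the libraries lay closer, at 18.5 and 21.5 on chow, 17.8 and 20.7 under HFD + L-NAME and 21.4 with NO2-OA. The median depth of B barcodes was 5524 and 5858 UMIs on chow, 5806 and 8148 under HFD + L-NAME and 5689 with NO2-OA, and its part in these shares was not tested beyond the thinning given in the closing section.

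T barcodes, which should carry no light chain, were read for free RNA. Since they lack Cd79a by the rule, barcodes with Cd3e that also took up Cd79a are left out. The level of free RNA can therefore be higher than these shares. A segment UMI was present in 0.238% and 0.772% of them on chow, 0.376% and 0.265% under HFD + L-NAME and 0.130% with NO2-OA, at median depths of 6546 to 9642 UMIs. These shares lie far under those of B barcodes in each library, and the median Igkc count of T barcodes was 0.

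The leading segment of a barcode is the one with most UMIs. Of 9985 B barcodes with a segment UMI, 8945 had a single leader (1562 and 2281 on chow, 1973 and 1536 under HFD + L-NAME and 1593 with NO2-OA), and 1040 had a tie and were set aside. Between 47.4% and 71.8% of the barcodes with a segment held a single segment UMI, so many leaders rest on 1 molecule. Among the 163 segments, 136 had a UMI in a B barcode, 128 led at least 1 barcode and 82 led barcodes in all 5 libraries. The 27 segments with no UMI were pseudogenes but for 1 gene.

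A few segments carried much of the usage. Between 12 and 14 segments made up 50% of led barcodes in each library, and 47 to 51 made up 90%. The 10 most used segments together led 40.8% to 44.3%. Shares over the 163 segments correlated between libraries with Pearson's r of 0.913 to 0.971, given as a description since all libraries share the same segments and the same capture. The order below the first place varied, with shares given below. Igkv1-110 came second in the first chow and the first HFD + L-NAME library. Iglv3 was second in the second chow and the NO2-OA library, and Iglv1 in the second HFD + L-NAME library.

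Igkv1-117 was the leader in first place in all 5 libraries. It led 7.04% and 5.17% of barcodes on chow, 7.75% and 6.58% under HFD + L-NAME and 6.65% with NO2-OA. The second chow library was the lowest, and the groups overlap. Igkv1-135 followed in the mean of the libraries, at 6.02% and 3.86% on chow, 4.92% and 5.40% under HFD + L-NAME and 5.52% with NO2-OA. Its near relative Igkv1-110, close to Igkv1-117 in sequence as shown above, led 6.34% and 3.24% on chow, 5.32% and 5.53% under HFD + L-NAME and 4.33% with NO2-OA. For both, the 2 chow libraries differed more from each other than the group means did. The second chow library was the lowest for all 3 of these Igkv1 segments, and the Igkv1 family as a whole was at 13.7% there against 18.6% to 21.2% in the other libraries.

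Igkv17-127 led 3.14% and 4.25% of barcodes on chow, 5.22% and 3.19% under HFD + L-NAME and 4.58% with NO2-OA. Its near copy Igkv17-121 was the steadiest of the 10, at 3.46% and 3.64% on chow, 3.85% and 3.19% under HFD + L-NAME and 3.83% with NO2-OA. The groups overlapped for both. Igkv12-44, of the family second in usage, stood at 4.48% and 4.47% on chow, 3.90% and 3.19% under HFD + L-NAME and 3.89% with NO2-OA, so both HFD + L-NAME libraries lay below both chow libraries, yet all 5 intervals overlapped (2.37% to 5.63% at their widest). Igkv5-43 led 4.42% and 2.59% on chow, 2.94% and 3.39% under HFD + L-NAME and 2.95% with NO2-OA, with overlapping groups. Igkv2-109 led 3.46% and 4.56% on chow, 2.64% and 3.26% under HFD + L-NAME and 2.07% with NO2-OA, with both HFD + L-NAME libraries below both chow libraries. Of its chow and HFD + L-NAME intervals, only those of the second chow and the first HFD + L-NAME library were apart. Among the 31 segments with a mean share of at least 1%, Igkv16-104 and Igkv5-48 were also lower in both HFD + L-NAME libraries, and Igkv19-93 was higher in both. No further segment of the 31 separated these groups. More of the 31, among them Igkv1-117 and Iglv1, lay apart by library number, with both libraries numbered 2 on the same side of all the rest. With 2 against 2 libraries such an order was not tested, since an exact permutation p cannot go below 0.33.

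Over the 31 segments with a mean share of at least 1%, exact 95% intervals did not overlap for 6 segments between the 2 chow libraries, and for 4 between the 2 HFD + L-NAME libraries. Between a chow and an HFD + L-NAME library they did not overlap for 2 to 4 segments over the 4 such pairs. Igkv1-110 was among them in both pairs with the second chow library and in neither pair with the first. It was also apart between the 2 chow libraries. The NO2-OA library was apart from the first and the second HFD + L-NAME library for 0 and 3 segments. In these counts a pair from 1 group differed in as many segments as any chow and HFD + L-NAME pair, or more.

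**Figure D1:**
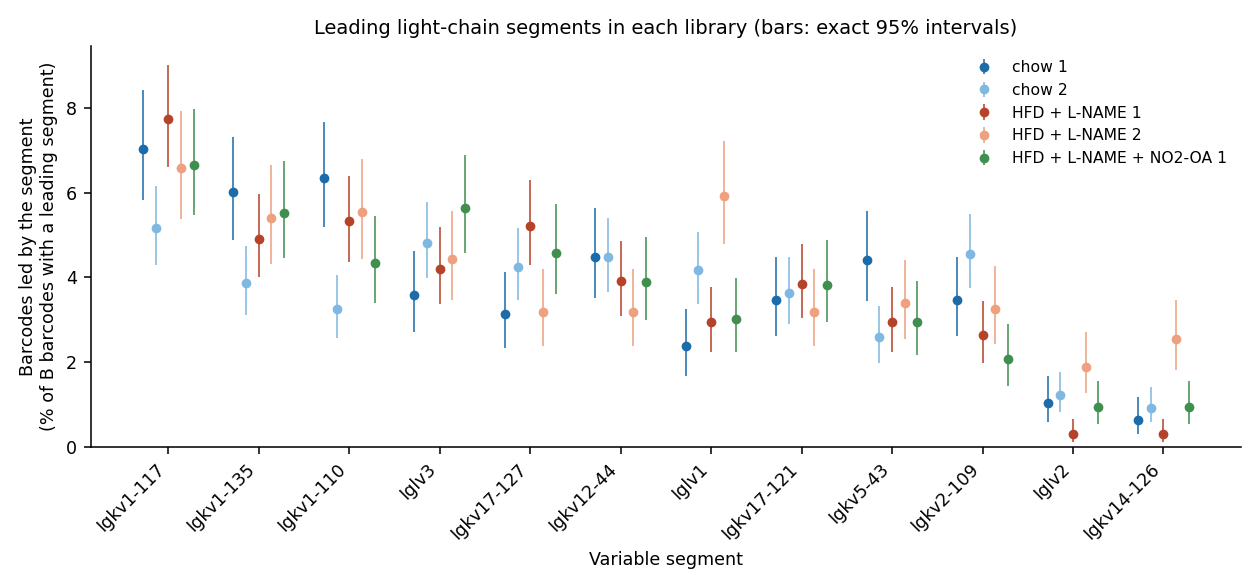
Share of B barcodes with a single leading light-chain segment that each named segment led (y axis, percent), for the 10 segments with the highest mean and for Iglv2 and Igkv14-126 (x axis), with 1 point per library and exact 95% binomial intervals as bars. Igkv1-117 reaches 5.17% to 7.75%, and the second HFD + L-NAME library stands above the other libraries for Iglv1 (5.92%) and Igkv14-126 (2.54%).

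Usage was uneven along the kappa locus. With the 160 kappa segments cut by their order into 3 stretches of 53 or 54, those farthest from Igkc led 52.5% of kappa-led barcodes (mean of libraries, range 48.7% to 55.1%), the middle stretch 7.79% (6.68% to 9.24%) and those nearest to Igkc 39.7% (37.4% to 43.3%). The middle stretch holds 28 annotated genes, against 30 in the far one and 42 in the near one. In total a median gene of the far stretch led 73 barcodes, one of the middle 14 and one of the near 61. The same order of stretches held in each library.

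Orientation split the usage more evenly. The segments on the strand of Igkc, 38 of them genes and the rest pseudogenes, led 54.6% of kappa-led barcodes (52.3% to 56.1%), and those on the opposite strand, 62 of them genes, led 45.4% (43.9% to 47.7%). Per gene the median was 71 barcodes on the same strand and 20 on the opposite strand. Igkv1-117, Igkv1-135, Igkv1-110, Igkv17-127 and Igkv17-121 are all on the strand of Igkc in the far stretch, and Igkv12-44 and Igkv5-43 are on the opposite strand in the near stretch.

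**Figure D2:**
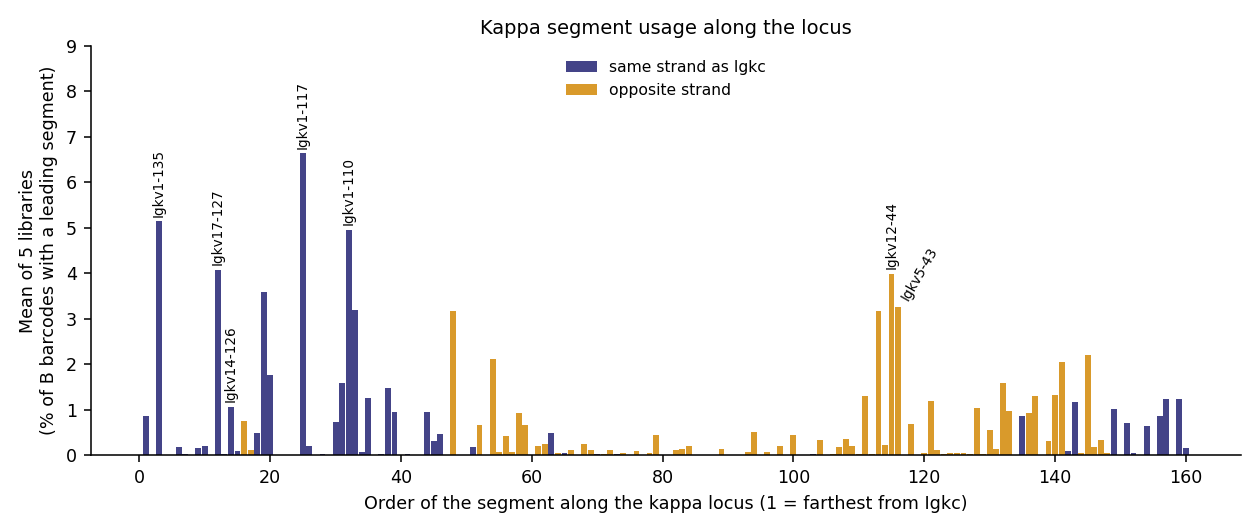
Mean share of B barcodes led by each kappa segment over 5 libraries (y axis, percent) against the order of the 160 segments along the kappa locus (x axis, 1 is farthest from Igkc), coloured by strand relative to Igkc. Tall bars stand at both ends of the locus, and the middle stretch led 7.79% of kappa-led barcodes.

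Segments annotated as pseudogenes led 197 barcodes, 1.36% to 3.84% of led barcodes per library. Of those, 107 were led by Igkv2-107, a single pseudogene on the strand of Igkc. It led 2.50% and 0.70% of barcodes on chow, 0.81% and 0.78% under HFD + L-NAME and 1.51% with NO2-OA, so the first chow library was the highest. Igkv2-107 was seen together with Igkv2-109, which lies 2 places away, in 25 barcodes, and with Igkv1-110 in 21. The germline transcripts of Igkv2-107 and Igkv2-109 were 79.9% identical.

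Lambda segments led 830 barcodes. Their share was 6.98% (95% interval 5.76% to 8.36%) and 10.2% (9.0% to 11.5%) on chow, 7.45% (6.33% to 8.70%) and 12.2% (10.6% to 14%) under HFD + L-NAME and 9.60% (8.20% to 11.2%) with NO2-OA. The 2 libraries numbered 2 were the highest, and the groups overlapped. With leaders of at least 3 UMIs and 3 times the next segment the mean share was 2.56%, against 9.30% with all leaders. A second reading came from the constant genes alone, which are far better covered. Among barcodes with at least 5 constant UMIs, lambda exceeded Igkc in 8.53% and 9.70% on chow, 6.24% and 14.4% under HFD + L-NAME and 8.56% with NO2-OA. The second HFD + L-NAME library was again the highest and the first HFD + L-NAME library the lowest.

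Iglv1 led 2.37% and 4.16% of barcodes on chow, 2.94% and 5.92% under HFD + L-NAME and 3.01% with NO2-OA. Iglv3 led 3.59% and 4.82% on chow, 4.21% and 4.43% under HFD + L-NAME and 5.65% with NO2-OA. Iglv2 was rarer, at 1.02% and 1.23% on chow, 0.30% and 1.89% under HFD + L-NAME and 0.94% with NO2-OA. Iglv1 and Iglv2 were both highest in the second HFD + L-NAME library, while Iglv3 was highest with NO2-OA. None of the 3 separated the groups.

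The 3 lambda segments differed in how often the lambda constant genes went with them. Leaders with at least 2 UMIs were taken over all libraries, without barcodes of 5 or more Jchain UMIs (Jchain is the joining chain of secreted IgA and IgM). Lambda constant UMIs exceeded Igkc in 63 of 77 barcodes led by Iglv1 (81.8%, interval 71.4% to 89.7%) and in 27 of 31 led by Iglv2 (87.1%, 70.2% to 96.4%). For Iglv3 the count was 16 of 43 (37.2%, 23.0% to 53.3%), and for kappa leaders 88 of 2635 (3.34%, 2.69% to 4.10%). In the pool, most barcodes led by Iglv3 held more kappa than lambda constant UMIs, and most led by Iglv1 or Iglv2 did not. Single libraries departed from this, with lambda ahead in 7 of 13 barcodes led by Iglv3 in the second HFD + L-NAME library and in only 4 of 9 led by Iglv1 with NO2-OA. No test was made, since barcodes of 1 library are not independent replicates.

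With leaders of 1 UMI included the shares were 61.9% for Iglv1, 83.1% for Iglv2, 25.6% for Iglv3 and 4.31% for kappa segments. Which lambda constant gene was seen also differed. With leaders of at least 2 UMIs, Iglc1 made up 50.4% of the lambda constant UMIs of barcodes led by Iglv1. For those led by Iglv2 and Iglv3 it made up 17.3% and 16.8%. Iglc2 made up 36.2%, 72.5% and 72.6% for Iglv1, Iglv2 and Iglv3. With leaders of 1 UMI included, Iglc1 made up 49.7%, 15.9% and 18.9% and Iglc2 38.9%, 70.6% and 67.4% in the same order. Iglc2 and Iglc3 are near copies, so the division between them is uncertain. Conversely, of barcodes with more lambda than kappa constant UMIs and a leading segment, 40.4% to 62.3% per library were led by a kappa segment.

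**Figure D3:**
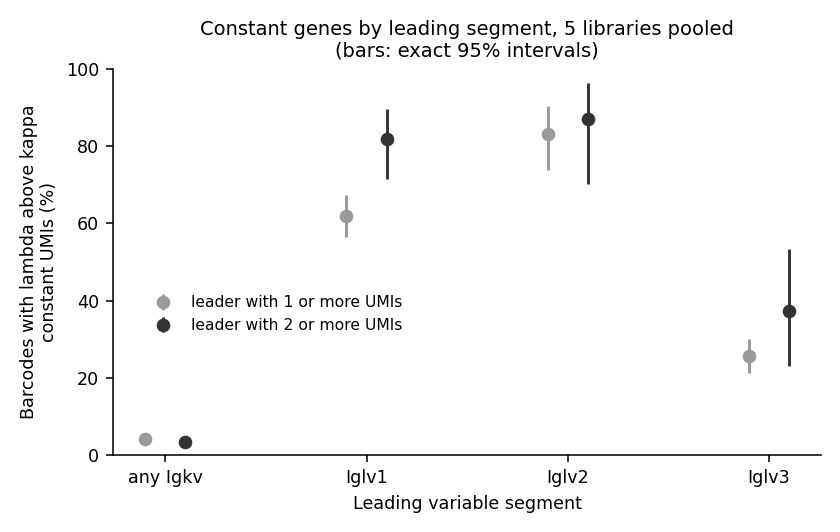
Share of barcodes whose lambda constant UMIs exceed their Igkc UMIs (y axis, percent) by leading variable segment (x axis), over the 5 libraries pooled, with exact 95% binomial intervals as bars, for leaders of at least 1 UMI (grey) and at least 2 UMIs (black). Iglv1 and Iglv2 reach 81.8% and 87.1% with at least 2 UMIs, Iglv3 37.2% and kappa segments 3.34%.

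Of 3851 barcodes with at least 2 segment UMIs, 2052 held a single segment (44.1% to 64.2% per library), and the rest held more than 1. These barcodes gave 2708 pairs of segments seen together, 1884 of them kappa with kappa. The pair seen most was Igkv1-117 with its near copy Igkv1-110, in 50 barcodes. Next came Igkv17-121 with Igkv9-120, in 42 barcodes, 13 times the count from the product of their frequencies. These last are direct neighbours on the same strand, and their germline transcripts are only 62.8% identical, as the sequences above show. Iglv1 with Iglv3 followed at 36, and the kappa with lambda pairs seen most were Igkv2-109 with Iglv1 (34) and Igkv1-135 with Iglv3 (32). Iglv1 with its near copy Iglv2 was seen in 22 barcodes. Igkv12-46 with Igkv12-44, which are 94.4% identical, was seen in 17.

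Neighbours on the locus were seen together more than their frequencies give. Of the kappa pairs, 16% lay within 3 places of each other, where the product of frequencies gives 4.57%. By library the share was 14% and 15.1% on chow, 15.3% and 16.7% under HFD + L-NAME and 18.8% with NO2-OA, against 4.18% to 5.19% from the product. Direct neighbours made up 7.59% of pairs against 1.73%. Besides Igkv17-121 with Igkv9-120, this holds for Igkv8-21 with Igkv6-20, seen together in 14 barcodes at 77.7% identity, and Igkv17-127 with Igkv14-126, 2 places apart, seen together in 13 at 66.2% identity.

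A small number of barcodes held many segment UMIs. At least 20 were held by 11 barcodes, 9 of them with at least 5 Jchain UMIs. The other 2 had no Jchain UMI and were led by Igkv12-46 (54 UMIs, first HFD + L-NAME) and Igkv8-28 (26 UMIs, second chow). Only 19 B barcodes had at least 5 Jchain UMIs, 7 and 1 on chow, 2 and 1 under HFD + L-NAME and 8 with NO2-OA. In 16 of the 19 Igha, the constant gene of IgA, exceeded Ighm and the summed Ighg genes. They held 3.75% and 5.03% of all segment UMIs on chow, 1.70% and 0.70% under HFD + L-NAME and 15.7% with NO2-OA. A single NO2-OA barcode held 251 segment UMIs, 223 of them Igkv5-43, which is 7.81% of its library's segment UMIs. A single barcode of the second chow library held 244, 235 of them Igkv12-44.

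Shares of UMIs and shares of barcodes therefore parted for these segments. Igkv5-43 made up 11.2% of segment UMIs with NO2-OA but led 2.95% of its barcodes, and it made up 3.17% of UMIs without the Jchain barcodes. Igkv12-44 made up 9.60% of segment UMIs in the second chow library, led 4.47% of barcodes and made up 5.01% of UMIs without the Jchain barcode. In the other libraries the widest gap was 2.00 percentage points for Igkv17-127 (first chow), 1.39 for Igkv1-117 (first HFD + L-NAME) and 1.58 for Igkv8-19 (second HFD + L-NAME).

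**Figure D4:**
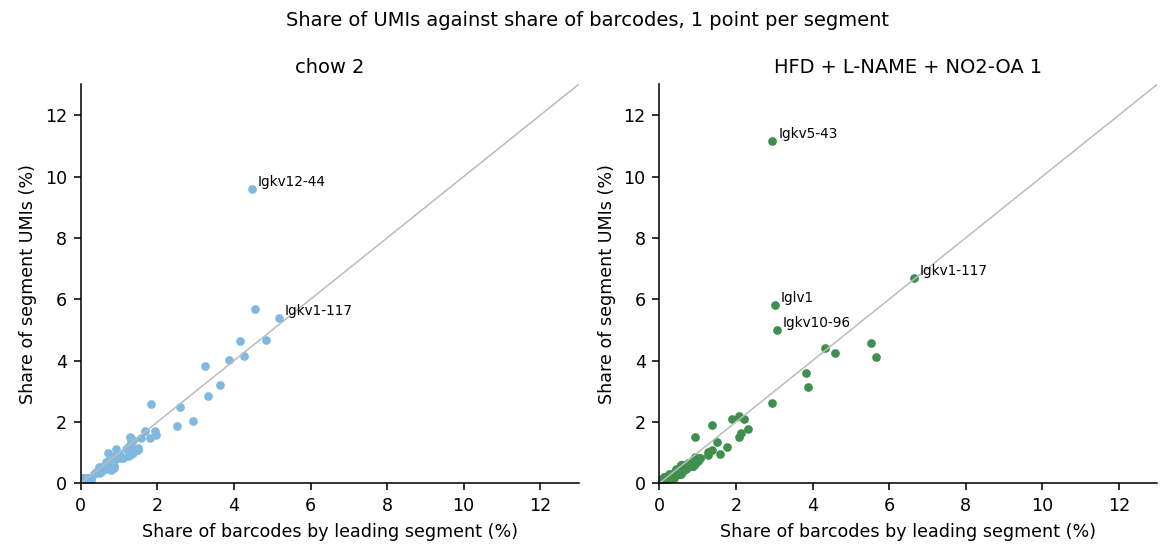
Share of segment UMIs (y axis, percent) against share of barcodes by leading segment (x axis, percent) for the second chow library and the NO2-OA library, 1 point per segment, with the line of equal shares. Igkv12-44 on chow (9.60% of UMIs) and Igkv5-43 with NO2-OA (11.2% of UMIs) stand above the line.

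Some barcodes with Jchain shared both chains within a library. In the NO2-OA library 7 such barcodes had a light and a heavy variable segment, and 3 pairs among them had the same leading kappa segment and the same leading heavy segment. These were Igkv5-43 with Ighv1-76 (223 and 50 kappa UMIs), Igkv6-20 with Ighv1-80 (13 and 12) and Igkv13-85 with Ighv1-53 (2 and 3). In the first chow library 1 pair among 4 such barcodes shared Igkv3-2 with Ighv1-82 (26 and 3 kappa UMIs). The cell barcodes of the 4 pairs differed at 12 to 14 positions, so no pair is 1 barcode with a reading error. All 8 barcodes held Igha UMIs, from 45 to 1050.

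Iglv1 was seen in 12 of the 19 Jchain barcodes, although none of them held more lambda constant UMIs than Igkc. The 2 NO2-OA barcodes with Igkv6-20 held 30 and 6 Iglv1 UMIs, and those with Igkv5-43 held 22 and 46.

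A group of B barcodes was set apart by genes outside the segments, namely at least 2 of Sox5, Zbtb32 and Fcrl5, which are known from atypical and B-1 B cells. These are called atypical barcodes. They numbered 105 and 234 on chow, 158 and 429 under HFD + L-NAME and 147 with NO2-OA, which is 1.52% and 4.06%, 2.40% and 12.9%, and 2.69% of B barcodes. The second HFD + L-NAME library stands apart, so each value below is given by library.

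Igkv14-126 led a larger share of the atypical barcodes than of the rest in each library as counted here. On chow it led 9.38% of atypical and 0.46% of other barcodes in the first library and 6.21% against 0.56% in the second. Under HFD + L-NAME it led 2.90% against 0.21% and 10.8% against 0.72%. With NO2-OA the values were 4.84% against 0.78%. The mean difference was 6.28 percentage points ± 3.15 (SD, n = 5 libraries), higher in 5 of 5. It is given as a description, with no test, since the segment was picked for these values. The mean share in atypical barcodes was 6.82%. It was 4.42% after thinning to 2000 UMIs per barcode, 4.86% with a mitochondrial share below 5% and 9.84% with leaders of at least 3 UMIs and 3 times the next segment, and in each of these 3 settings the lowest library was at 0. The first HFD + L-NAME value rests on 69 atypical barcodes with a leader and the first chow value on 32.

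Igkv14-126 was picked for its values among 57 segments that led at least 30 barcodes. Igkv5-39 and Igkv2-107 were also higher in atypical barcodes in 5 of 5 libraries, with means of 4.32% against 0.97% and 4.49% against 1.15%. Lower in 5 of 5 libraries were 8 segments, among them Iglv3 (mean 1.66% against 4.78%), Igkv17-121 and Igkv19-93. Several of the 8 were at 0 in a library, Igkv14-100 and Igkv4-51 in all 5 of them. Some of these libraries had few atypical barcodes, and none of these differences was tested. Atypical barcodes were deeper, with medians of 9371 to 18,795 UMIs against 5496 to 7712, and the part of depth was not tested beyond thinning to 2000 UMIs per barcode.

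**Figure D5:**
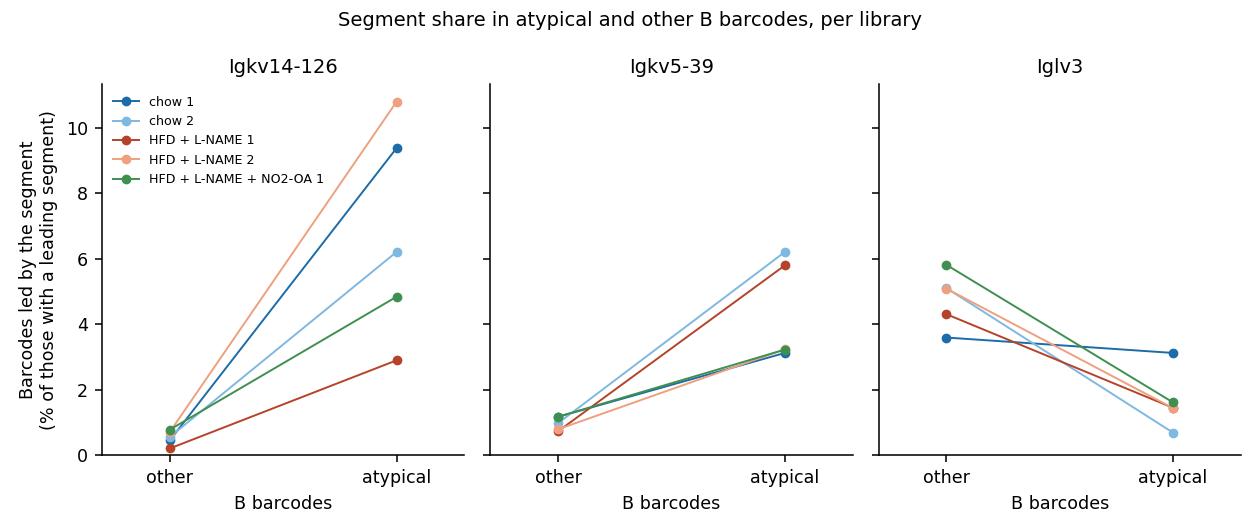
Share of barcodes led by Igkv14-126, Igkv5-39 and Iglv3 (y axis, percent of those with a leading segment) in atypical B barcodes and in other B barcodes (x axis), with a line for each library. Igkv14-126 goes from 0.21% to 0.78% in other barcodes to 2.90% to 10.8% in atypical ones.

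Igkv14-126 was seen mostly with 1 heavy segment. Heavy and light leaders were both found in 2499 barcodes. Of 33 led by Igkv14-126, 25 had Ighv11-2 as the leading heavy segment (75.8%, exact 95% interval 57.7% to 88.9%), and of 31 barcodes led by Ighv11-2, those 25 are 80.6% (62.5% to 92.5%). Ighv11-2 led 1.24% of all 2499. The 25 came from 4 and 5 barcodes on chow, 0 and 14 under HFD + L-NAME and 2 with NO2-OA, and 22 of them were atypical. No other combination of a light and a heavy segment was seen in more than 8 barcodes.

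The other pair known from B-1 cells was rare, with Ighv12-3 in 3 of 12 barcodes led by Igkv4-91 (25%, exact interval 5.49% to 57.2%). Among all 2499 barcodes with both leaders, Ighv12-3 led 0.56%, so this pair was scarce but above that background. Those 3 are 21.4% of the 14 barcodes led by Ighv12-3, and 2 of the 3 were atypical. No test was made at these small numbers. Barcodes led by Igkv14-126 held Ctla4 in 5 of 10 and 5 of 21 on chow, 3 of 6 and 25 of 39 under HFD + L-NAME and 3 of 15 with NO2-OA, against 2.75% to 11.7% of barcodes with another leader. Bhlhe41, a transcription factor of B-1 cells, was present in 2 and 8, 1 and 22, and 2 of them in the same order, against 10.3% to 25.5%. Cd5, a surface protein of B-1a cells, was present in 0 and 2, 2 and 4, and 0, against 1.27% to 2.67%. Zcwpw1 was present in 0 and 7, 3 and 20, and 1, against 2.03% to 9.69%, and Cd9 in 8 and 12, 4 and 27, and 4, against 13.7% to 64.6%. Cd5 was thus unseen in 2 libraries and Zcwpw1 in 1, at these small numbers. On chow and under HFD + L-NAME, barcodes led by Igkv14-126 were deeper than the rest (medians of 10,076 to 23,147 against 5988 to 8632 UMIs), so shares with a UMI are not matched for depth. In the NO2-OA library the median was 5219 against 6281. These genes were chosen after the values were seen.

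Over all led barcodes Igkv14-126 stood at 0.64% and 0.92% on chow, 0.30% and 2.54% under HFD + L-NAME and 0.94% with NO2-OA. The second HFD + L-NAME library, which also had the highest share of atypical barcodes, was the highest, and the first HFD + L-NAME library was the lowest.

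The effect of the regimen and of NO2-OA on segment expression was tested on UMIs summed over B barcodes per library, over all 18,079 genes that passed a filter on low counts, with edgeR's quasi-likelihood test and Benjamini-Hochberg adjustment. Of the 163 segments, 66 passed that filter. Between HFD + L-NAME and chow 0 of 66 segments and 0 of all genes (0.0%) had an adjusted p below 0.05. At an unadjusted p below 0.05 there were 204 genes, and 1 segment, Igkv4-68, which was lower (0.29 and 0.20 CPM on chow, 0.047 and 0.058 under HFD + L-NAME). A single Jchain barcode of the first chow library held 9 of its Igkv4-68 UMIs. Without such barcodes Igkv4-68 did not pass the filter on low counts, so its difference was not tested again. None of the 64 segments tested there had an unadjusted p below 0.05. By DESeq2, 3 genes and 0 segments passed. The segments' median log2 fold change was 0.08, with 39 of 66 above 0, and the median over all genes was 0.00. In summed counts from B barcodes, a change in the number of cells using a segment and in RNA per cell cannot be told apart.

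The sign of that median rested on single libraries. Leaving out chow 1 gave -0.34 and leaving out chow 2 gave 0.78, while leaving out HFD + L-NAME 1 gave 0.27 and HFD + L-NAME 2 gave -0.27. Both HFD + L-NAME libraries exceeded both chow libraries in CPM for 6 of the 66 segments (9.09%), where 11.1% of all genes did so, and fell below both for 2 (3.03%), against 11.1% of all genes. The 8 include Igkv1-117, at 5.07 and 6.58 CPM on chow and 7.22 and 7.92 under HFD + L-NAME.

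The segments with the smallest p on the higher side, of those with a mean share of at least 0.5%, were Igkv8-19, Igkv1-110 and, with the smallest p, Igkv4-59. Igkv8-19 stood at 1.18 and 2.06 CPM on chow and 2.08 and 4.24 under HFD + L-NAME, a log2 fold change of 0.96 ± 0.51 (SE; edgeR adjusted p = 0.9998). Igkv1-110 stood at 3.86 and 4.65 against 5.10 and 7.84 CPM, with 0.60 ± 0.34 on the log2 scale. In these 2 the second HFD + L-NAME library was well above the rest, and without it the values were 0.34 and 0.24. Igkv4-59 was at 0.18 and 0.18 against 0.31 and 0.55 CPM.

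On the lower side were Igkv12-44, Igkv2-112 and Igkv2-109. Igkv12-44 was at 2.39 and 11.7 CPM on chow and 2.85 and 4.70 under HFD + L-NAME, and Igkv2-109 at 2.10 and 6.94 against 2.22 and 4.12. In both the second chow library was the highest of these 4 and the first chow library the lowest, and the log2 fold changes of -0.90 ± 0.76 and -0.51 ± 0.63 turned to 0.66 and 0.59 without the second chow library. For Igkv12-44 the value was -0.05 without the 5% of barcodes with most UMIs and -0.12 without Jchain barcodes, 1 of which held 235 of its 466 UMIs in that library. None of these 6 passed the test.

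In the NO2-OA library against HFD + L-NAME, where 1 library faces 2 and is assumed to vary like the others, 0 of 66 segments and 0 of 18,079 genes (0.0%) had an adjusted p below 0.05. At an unadjusted p below 0.05 there were 315 genes, and 1 segment, which was higher. By DESeq2, 53 genes and 0 segments passed. There 10,295 of 26,551 genes had no adjusted p, and how many of these were segments is not given here. The segments' median was -0.15 with 23 of 66 above 0, against -0.04 over all genes, and it was 0.14 without the second HFD + L-NAME library. Both comparisons share the HFD + L-NAME libraries.

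Igkv5-43 was that segment. It stood at 10.1 CPM with NO2-OA, against 2.36 and 4.24 under HFD + L-NAME and 2.59 and 3.02 on chow, with a log2 fold change of 1.62 ± 0.45 (SE; edgeR adjusted p = 0.9999). Without barcodes of 5 or more Jchain UMIs it was -0.44 ± 0.51, so its height rests on the 2 IgA barcodes described above. Igkv10-96 (4.54 CPM against 2.81 and 2.21) had 0.85 ± 0.50, and 0.01 without Jchain barcodes, 1 of which held 83 of its 161 UMIs with NO2-OA. Igkv2-112 had 1.29 ± 0.73, with 0.81 and 1.99 without the first and the second HFD + L-NAME library. On the lower side Igkv1-110 had -0.69 ± 0.43, Igkv8-27 -1.03 ± 0.74 and Igkv8-30 -1.40 ± 1.08, and none passed. Without the second HFD + L-NAME library Igkv1-110 was at -0.32 and Igkv8-30 at -0.12.

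The other listed genes gave the same count of 0. Of 77 genes of light- and heavy-chain constant regions, joining segments, recombination, the surrogate light chain, enhancer factors, folding and secretion, the receptor complex and B-1, atypical or memory cells, 65 were measured and 0 passed in either comparison, with 1 (Pdia6, higher under the regimen) and 4 at an unadjusted p below 0.05. The 4 were Jchain and Igha, higher with NO2-OA, and Cd9 and Rag1, lower. Cd9 stood at 62.9 CPM with NO2-OA, against 467.5 and 229.9 under HFD + L-NAME. The platelet markers of B barcodes summed to 116.6 against 1135 and 708.7 CPM in the same libraries, and their part in the Cd9 values was not tested. Rag1 was low throughout, at 0.17 CPM with NO2-OA against 0.47 and 1.28 under HFD + L-NAME. Igkc stood at 2390 and 4119 CPM on chow, 3646 and 4048 under HFD + L-NAME and 3461 with NO2-OA, with a log2 fold change of 0.24 ± 0.35 for the regimen. Iglc1, the constant gene next to Iglv1, was at 94.6 and 285.0 CPM on chow, 138.3 and 392.0 under HFD + L-NAME and 149.9 with NO2-OA, higher in the libraries numbered 2. Jchain, present in most of the barcodes with at least 20 segment UMIs, was at 40.8 and 15.6 on chow, 11.9 and 3.89 under HFD + L-NAME and 92.0 CPM with NO2-OA. Its log2 fold change was 3.53 ± 0.84 with NO2-OA (edgeR adjusted p = 0.9999). Igha was likewise highest with NO2-OA and lowest in the second HFD + L-NAME library, at 86.0 and 35.6, 36.2 and 7.02, and 196.5 CPM.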

How the data were processed

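The authors deposited 1 matrix of UMI counts per gene and cell barcode for each library, with no normalization. Per the file headers they came from Cell Ranger 7.1.0, and per the submitters' processing notes from bcl2fastq and alignment to mm39. The annotation release is not given in the sources used here. Strand, order and germline transcripts of the segments come from GENCODE M21 (GRCm38), matched by symbol for all 163.

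The members and lists were chosen with earlier results of these data known. Doublets were not called. Libraries held 8488 to 17,997 barcodes and 71,216,133 to 122,022,000 UMIs. Counts were summed over B barcodes and fitted over all 5 libraries by the robust quasi-likelihood method of edgeR 4.0.16 (R 4.3.3), after filterByExpr and TMM scaling and with no term but the group. Shares carry exact (Clopper-Pearson) 95% intervals, and 2 against 2 libraries cannot go below an exact permutation p of 0.33. Identities are over global alignments of germline transcripts with at least 250 aligned bases (Biopython 1.88).

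Segments were named by a rule: the 10 most used, the 3 Iglv segments, those past the threshold or else the 3 with the smallest p in each direction at a mean share of at least 0.5%, and in each library the one whose share of UMIs most exceeds its share of barcodes. Igkv14-126, Igkv2-107, Igkv5-39, Igkv4-91, those of the Jchain barcodes, pairs seen together and their heavy partners were chosen after their values were seen. The alternatives were DESeq2 1.42.0, its size factors in edgeR, no filter, other barcode filters, equal barcode numbers, barcodes in place of UMIs, a replicate block and each library left out. The edgeR step was also tested on simulated data, with a fixed spread and changes in genes drawn from all that passed the filter. Its outcome is not given here, and it does not measure the power for these segments. Added after the data were seen were the alternatives for Igkv14-126, lambda share by constant genes, and shares without each library.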

Additional observations from a re-analysis of the deposited data

Results flagged for a closer look

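Barcodes outside the B and T definitions also carried segments. Of kept barcodes with neither Cd79a nor Cd3e, 1.74% and 1.39% held a segment UMI on chow, 0.97% and 0.885% under HFD + L-NAME and 1.49% with NO2-OA, each above the share in T barcodes of its library. They numbered 88 and 26, 25 and 31, and 56, with at most 8 segment UMIs each. Ms4a1, which encodes the B-cell protein CD20, was present in 58.0% and 26.9%, 40.0% and 22.6%, and 41.1% of them, against 3.48% to 7.01% of all barcodes of that kind. Of barcodes with both Cd79a and Cd3e, 21.9% and 31.5% held a segment UMI on chow, 24.6% and 36.6% under HFD + L-NAME and 25.7% with NO2-OA, below the share of B barcodes of the same library in each. Neither kind enters the comparisons above.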

How the results depend on the processing

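No segment was called in either comparison under any alternative run, the replicate block (0 segments in each), DESeq2 and each library left out (0 to 0) included. Under the block, which takes same-numbered libraries as pairs, 6 genes were called for the regimen and 66 for NO2-OA, against 0 and 0, and the segments' median log2 fold change was 0.15 and 0.27, against 0.08 and -0.15. Same-numbered deviations correlated at 0.446 across genes, but 2 pairs do not establish pairing. With NO2-OA the block gave Igkv8-27 -0.66, Igkv8-30 -0.52 and Igkv2-112 1.94, none called. Barcodes in place of UMIs gave 6 and 50 genes, and moved the median of all genes to 0.22 and -0.29 (log2). Leaving out chow 1 called 10 genes for the regimen, HFD + L-NAME 1 called 6 and HFD + L-NAME 2 called 3.

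Single segments changed sign as follows. For the regimen, Igkv12-44 was at 0.048 with barcodes in place of UMIs. With each library left out it ran from -1.63 to 0.66, Igkv2-112 from -1.33 to 0.014 and Igkv2-109 from -1.13 to 0.59, above 0 in all 3 only without chow 2. For NO2-OA, Igkv5-43 was at -0.44 both without the 5% deepest barcodes and without Jchain barcodes and at -0.34 with barcodes in place of UMIs, and Igkv10-96 at -0.18 without the deepest and -0.42 with barcodes.

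Depth limits the shares. Requiring a leader of at least 3 UMIs and 3 times the next left 3.71% of B barcodes with a leader, against 33.5%, took the lambda share from 9.30% to 2.56% and that of the 10 most used segments from 43.1% to 58.2%. Thinning to 2000 UMIs gave 15.1% with a leader and 45.8% for the 10, which made up 48.2% of UMIs. The mean share of Igkv14-126 in atypical barcodes ranged from 4.42% to 9.84%, and single libraries fell to 0 after thinning, with a mitochondrial share below 5% or with the stricter leader.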
